A study of Drosophila melanogaster with 24 samples.

Results

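Binding of the zinc-finger protein CLAMP and of the insulator proteins CP190, Su(Hw) and Mod(mdg4)2.2 was described at 7 appendage and eye patterning genes of Drosophila melanogaster: Dll, dac, hth, exd, ss, eya and so. The genes were named beforehand with the deposited peaks in view, out of 17684 genes that the RefSeq table places on the 6 main arms of the genome. A peak was assigned to a gene when it shared at least 1 base with the gene's span or the 10 kb on either side. Peak positions, their strength and their presence in each list are therefore descriptions and carry no test.

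The cells were Kc167, a line derived from fly embryos that resembles blood cells (hemocytes). In the dsRNA group, cells received 5 ug of double-stranded RNA (dsRNA) against Clamp and were kept for 6 days, and chromatin immunoprecipitation with sequencing (ChIP-seq) used the CLAMP antibody made through Abcam (2 libraries, with 2 inputs). In the mock groups, 2 libraries each were made with that Abcam antibody, with a CLAMP antibody from SDIX, and with antisera against CP190, Su(Hw) and Mod(mdg4)2.2, beside 10 inputs. All groups share the cell line, and the genotype is given no further in the labels.

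The libraries of a group were pooled before peaks were called, so there are 6 lists, no value has a replicate error, and the depth of each library is unknown. On the 6 arms the dsRNA list held 1653 peaks with a highest fold enrichment of 5.95, against 3861 peaks and 28.2 in the mock list of the same antibody. The SDIX list held 5370 peaks, the CP190 list 9435, the Su(Hw) list 3687 and the Mod(mdg4)2.2 list 1732. Fold enrichment is the authors' ratio of ChIP signal over background at a peak's summit, and it is used here to order peaks within a list. No CLAMP protein or RNA level was analysed here, and a lower CLAMP level and a weaker library cannot be told apart in the dsRNA list.

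Appendages of the fly are divided along the axis from body wall to tip by transcription factors: Hth and Exd act proximally, Dac in the middle and Dll at the tip. Hth, a homeodomain protein of the Meis type, brings the Pbx-type homeodomain protein Exd into the nucleus, where Exd serves as a partner of Hox proteins. Ss, a bHLH-PAS factor, gives the antenna its identity, and the eye needs the homeodomain protein So with its coactivator Eya, and Dac beside them. Insulator proteins bind sites that can separate enhancers from promoters of other genes. Su(Hw), Mod(mdg4) and CP190 form the gypsy-type insulator complex, and CLAMP binds GA-rich repeats.

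Every one of the 7 genes had a mock CLAMP peak with either antibody within 10 kb, but the strength differed widely. The Abcam list held 19 peaks at the 7 genes and the SDIX list 21. Of all genes, 48.9% had an Abcam peak and 52.3% an SDIX peak by the same rule. Of the 2033 genes that span at least 10 kb, 69.6% had an Abcam peak and 74.2% an SDIX peak. CP190 peaks lay within 10 kb of 6 genes (all but Dll), where 87% of all genes and 95.3% of those spanning at least 10 kb had one. Su(Hw) was listed at 4 genes (dac, hth, ss and eya), against 39.9% and 63.2% in these backgrounds, and Mod(mdg4)2.2 at hth and ss, against 21.4% and 35.2%. After Clamp dsRNA 3 genes had a CLAMP peak, against 3.85% and 8.61%. Since the genes were chosen from these lists, nothing is read from their counts. The window grows with the gene, and hth, which spans 132 kb, held 9 of the 19 Abcam peaks and 10 of the 21 SDIX peaks.

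By Abcam fold enrichment the 19 peaks fell into a strong and a weak set, with no value between 8.26 and 17.7. The SDIX list showed no gap as wide, since its peak at eya reached 9.84-fold beside 12.0-fold at dac. The words strong and weak therefore refer to the Abcam values. The 7 strong peaks lay at hth (4 peaks), ss, Dll and dac, at ranks 10 to 80 of 3861. The other 12 were at or below 8.26-fold, and they include every Abcam peak at eya, so and exd. Over the gene windows, the median of the highest Abcam fold enrichment was 17.7 for the 7 genes and 3.95 for all genes that span at least 10 kb. For all genes it was 0, which stands for no peak. The 7 genes were chosen from these lists, so nothing is read from this difference.

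**Figure D1:**
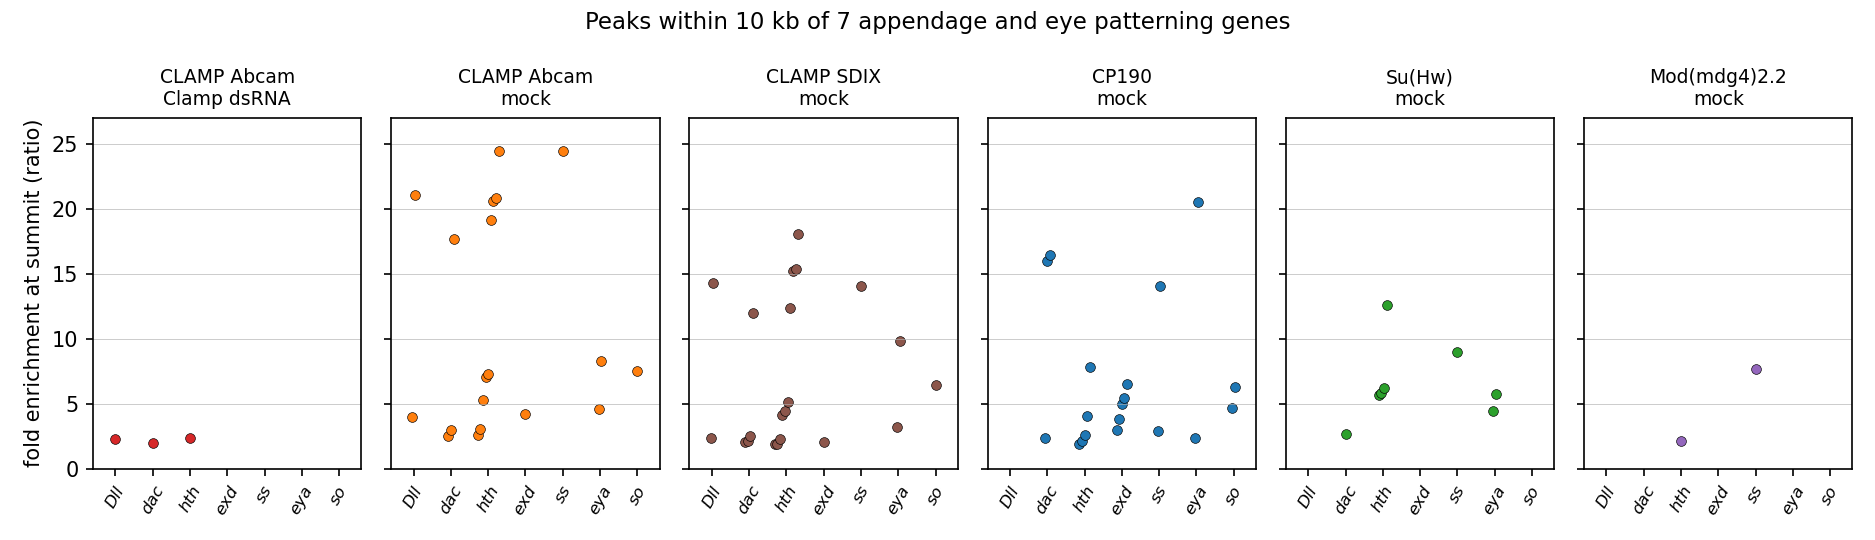
Fold enrichment at the summit (ratio, y axis) of each peak within 10 kb of the 7 genes (x axis), in a panel per peak list; each point is 1 peak, and an empty column means no peak. The 3 points after Clamp dsRNA lie between 2.01 and 2.38, the mock Abcam points reach 24.4 at ss and hth, and Dll has no point in the CP190, Su(Hw) and Mod(mdg4)2.2 panels; heights are ordered within a panel and are not amounts across panels.

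The proximal gene hth (3R, 10507561 to 10639568, build dm6) had the most CLAMP peaks of the 7. All 9 of its Abcam summits lay inside the gene span, and 4 of them were strong. Counting all Abcam peaks within 10 kb, 59 genes of the table, hth included, had 9 or more. At 17.7-fold or more, a limit set after the values were seen, no other gene had 4, and 1.05% of genes had any. This limit is the value of the dac peak, and the share was not taken for long genes alone, although hth spans 132 kb. The gene tai, which also had 9 Abcam peaks, reached 17.5-fold, just below the limit. Positions below are counted from the low-coordinate end of a gene, because the gene table used here gives no strand.

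The strong hth peaks stood in 2 places. A lone peak with its summit at 28.4 kb reached 19.1-fold with the Abcam antibody and 18.0-fold with the SDIX antibody, where it ranked 7 of 5370 by fold enrichment and 33 by -log10 q. The remaining 3 lay within 7.85 kb of each other, with Abcam summits at 106.9, 109.5 and 114.8 kb and fold enrichments of 24.4, 20.6 and 20.8. The SDIX antibody gave 15.4-, 12.4- and 15.2-fold at the same 3 sites. Between 64.6 and 106.9 kb no CLAMP peak was listed for either antibody.

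Weaker hth sites were seen by both antibodies. With the Abcam antibody they were 5.25-fold at 460 bases inside the low-coordinate end, 7.26-fold at 39.2 kb, 7.06-fold at 49.9 kb, 3.02-fold at 61.1 kb and 2.56-fold at 64.6 kb. At these sites the SDIX values were 4.41, 4.14, 5.13, 1.91 and 1.92. A 2.26-fold SDIX peak at 20.2 kb had no Abcam peak.

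The Su(Hw) and Mod(mdg4)2.2 peaks within hth, and 3 of its 5 CP190 peaks, shared no base with a CLAMP peak. A Su(Hw) peak of 12.6-fold at 8.60 kb coincided with CP190 (7.80-fold, at 8.56 kb) and with a weak Mod(mdg4)2.2 peak (2.15-fold, at 8.16 kb), so that all 3 gypsy-type proteins were listed there. Its summit lay 8.14 kb from the nearest CLAMP summit. Further Su(Hw) peaks with CP190 stood at 33.7 kb (6.23-fold, CP190 4.02-fold) and 36.7 kb (5.69-fold, CP190 2.17-fold). The fourth Su(Hw) peak, 5.83-fold at 68.9 kb, had no peak of any other list.

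CP190 met CLAMP at 2 hth sites, each time with a low CP190 value. It was 2.56-fold under the strongest hth CLAMP peak, with the summits 61 bases apart, and 1.90-fold under the weak CLAMP peak at 61.1 kb.

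**Figure D2:**
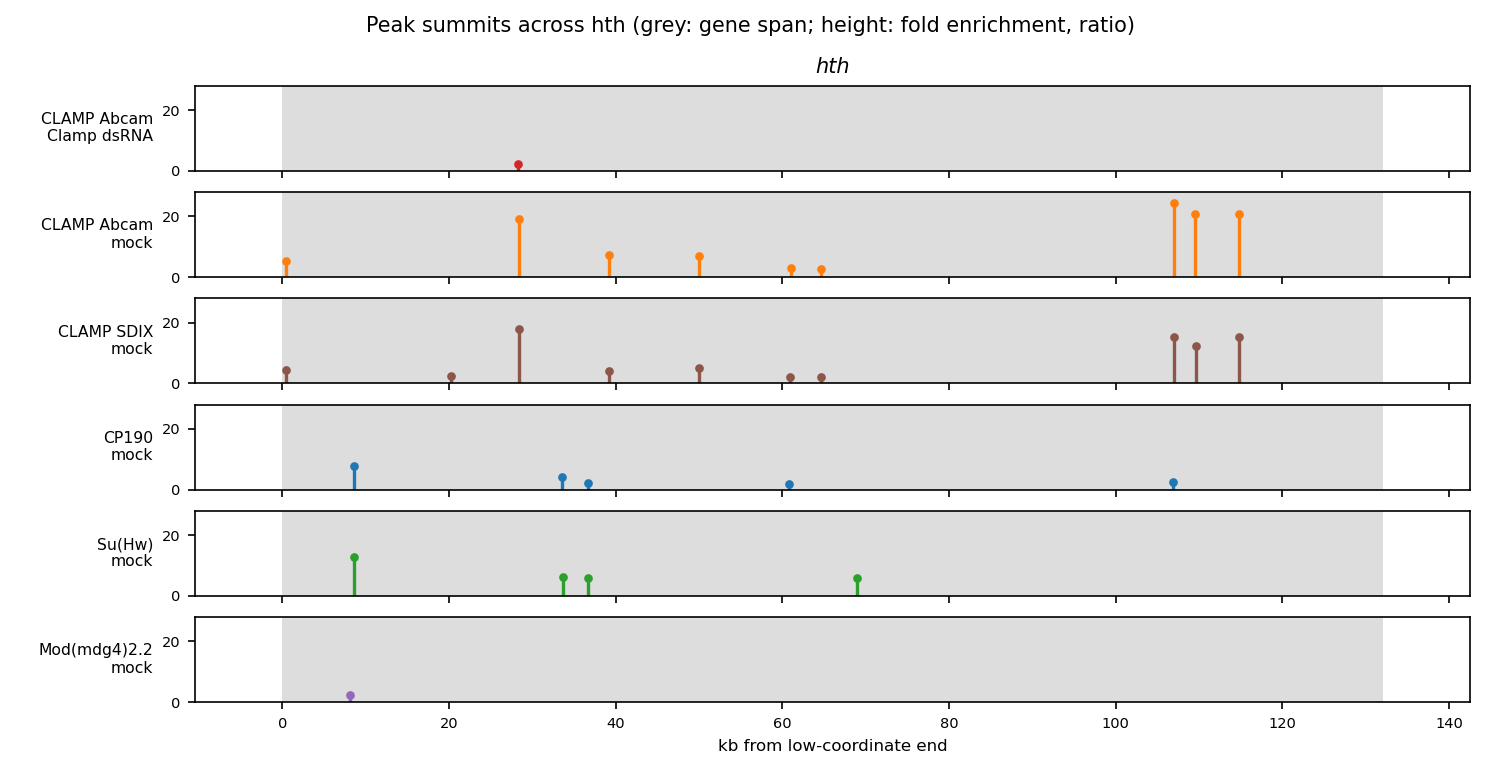
Peak summits across hth in the 6 lists; the x axis is the distance in kb from the low-coordinate end, grey is the gene span, and the height of each line is the fold enrichment (ratio). The dsRNA list holds 1 peak, under the mock CLAMP peak at 28.4 kb, while the 3 CLAMP peaks from 106.9 to 114.8 kb have none, and the Su(Hw) peaks lie between CLAMP peaks.

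The Hth partner gene exd (X, 15992468 to 15996509) had the lowest top CLAMP value of the 7 genes with either antibody. Its only Abcam peak was 4.23-fold (rank 1660), with the summit 75 bases beyond the high-coordinate end, in the gap before the neighbouring gene CG8939. The SDIX peak was 2.02-fold, and its summit lay 16 bases inside CG8939. With a span of 4.04 kb, exd is the shortest of the 7 genes and has close neighbours on either side.

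CP190 was listed 5 times around exd, from 2.98- to 6.54-fold. One summit (5.44-fold) lay 4 bases inside the low-coordinate end of exd itself. The others lay 11 bases from an end of Slc25A46a, 67 from ND-20, 36 from CG8939 and 23 from vap. The peak at CG8939 (4.99-fold) is the one that shared bases with CLAMP. No Su(Hw) or Mod(mdg4)2.2 peak lay within 10 kb of exd, and the nearest of Su(Hw) was 22.4 kb away.

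The medial gene dac (2L, 16466512 to 16485998) had all its CLAMP summits beyond its high-coordinate end. The strong one was 17.7-fold with the Abcam antibody (summit 462 bases beyond the end, rank 80) and 12.0-fold with the SDIX antibody (483 bases). Weaker Abcam peaks followed, of 2.50-fold near Nepl8 and 2.96-fold inside Tpr2, the next genes. The SDIX antibody gave 3 peaks of 2.03- to 2.50-fold inside Tpr2.

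CP190 was strong beside dac, but not at the strong CLAMP summit. Its peaks of 16.0- and 16.4-fold had their summits 364 bases from an end of Nepl8 and 194 bases from an end of Tpr2. The 16.0-fold CP190 summit lay 6 bases from the summit of the 2.50-fold Abcam peak. Under the 17.7-fold CLAMP peak, CP190 had a 2.36-fold peak with its summit 288 bases away. The 16.0-fold CP190 peak also shared bases with the edge of this CLAMP peak, with the summits 1324 bases apart. A 2.70-fold Su(Hw) peak, among the weakest of its list at rank 3555 of 3687, lay 588 bases from the same CLAMP summit, inside dac. It is the only Su(Hw) peak at the 7 genes that shared bases with CLAMP.

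The distal gene Dll (2R, 24814822 to 24835667) had CLAMP without any insulator protein. Its strong CLAMP peak had its summit 133 bases outside the low-coordinate end (Abcam, 21.1-fold, rank 27) and 129 bases outside it with the SDIX antibody (14.2-fold, rank 47). A second site 9.34 kb beyond the high-coordinate end was 3.95-fold with the Abcam antibody and 2.39-fold with the SDIX antibody. No CP190, Su(Hw) or Mod(mdg4)2.2 peak lay within 10 kb of Dll. The nearest CP190 peak was strong (16.9-fold) and stood 16.8 kb beyond the low-coordinate end.

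The antennal gene ss (3R, 16374434 to 16403690) had CLAMP at one end and a gypsy-type site at the other. By fold enrichment its CLAMP peak was the highest of the 7 genes with the Abcam antibody, at 24.43-fold (rank 10), nearly equal to 24.42-fold for the strongest at hth. By -log10 q that hth peak stood higher, at 579 against 560 for ss. The ss summit lay 104 bases beyond the high-coordinate end, and the SDIX antibody gave 14.1-fold there. CP190 had a 2.93-fold peak at this site, 75 bases from the Abcam summit.

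At the low-coordinate end of ss, Su(Hw) (8.95-fold), Mod(mdg4)2.2 (7.65-fold, rank 140 of 1732) and CP190 (14.1-fold) had their summits 157, 128 and 146 bases outside the gene. No CLAMP peak shared a base with these, and the Su(Hw) and Abcam summits of ss were 29.5 kb apart. The Mod(mdg4)2.2 peak is the stronger of only 2 at the 7 genes.

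The eye gene eya (2L, 6527447 to 6546976) showed a similar division of its ends, with weaker CLAMP. CLAMP was 8.26-fold with the Abcam antibody and 9.84-fold with the SDIX antibody at 8.86 kb inside the gene. These antibodies placed the summit on the same base. At the high-coordinate end it was 4.57- and 3.19-fold, with summits 67 and 106 bases outside. At the low-coordinate end, in the gap to CG31637, CP190 reached 20.5-fold, rank 64 of 9435 and its highest value at the 7 genes, with a 4.41-fold Su(Hw) peak beneath it. A second Su(Hw) peak of 5.71-fold at 12.6 kb, with CP190 at 2.37-fold, lay 3.76 kb from the nearest CLAMP summit.

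The other eye gene, so (2R, 7419350 to 7434872), had 1 CLAMP site at its low-coordinate end. It was 7.49-fold with the Abcam antibody (summit 101 bases outside) and 6.40-fold with the SDIX antibody (74 bases outside). CP190 was listed in the outer parts of the window only, at 4.71-fold inside CG1701 and 6.26-fold inside CG11123. These summits lay 10.2 and 5.87 kb from so. No Su(Hw) or Mod(mdg4)2.2 peak was listed within 10 kb of so, and the nearest of each stood 19.1 kb away.

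**Figure D3:**
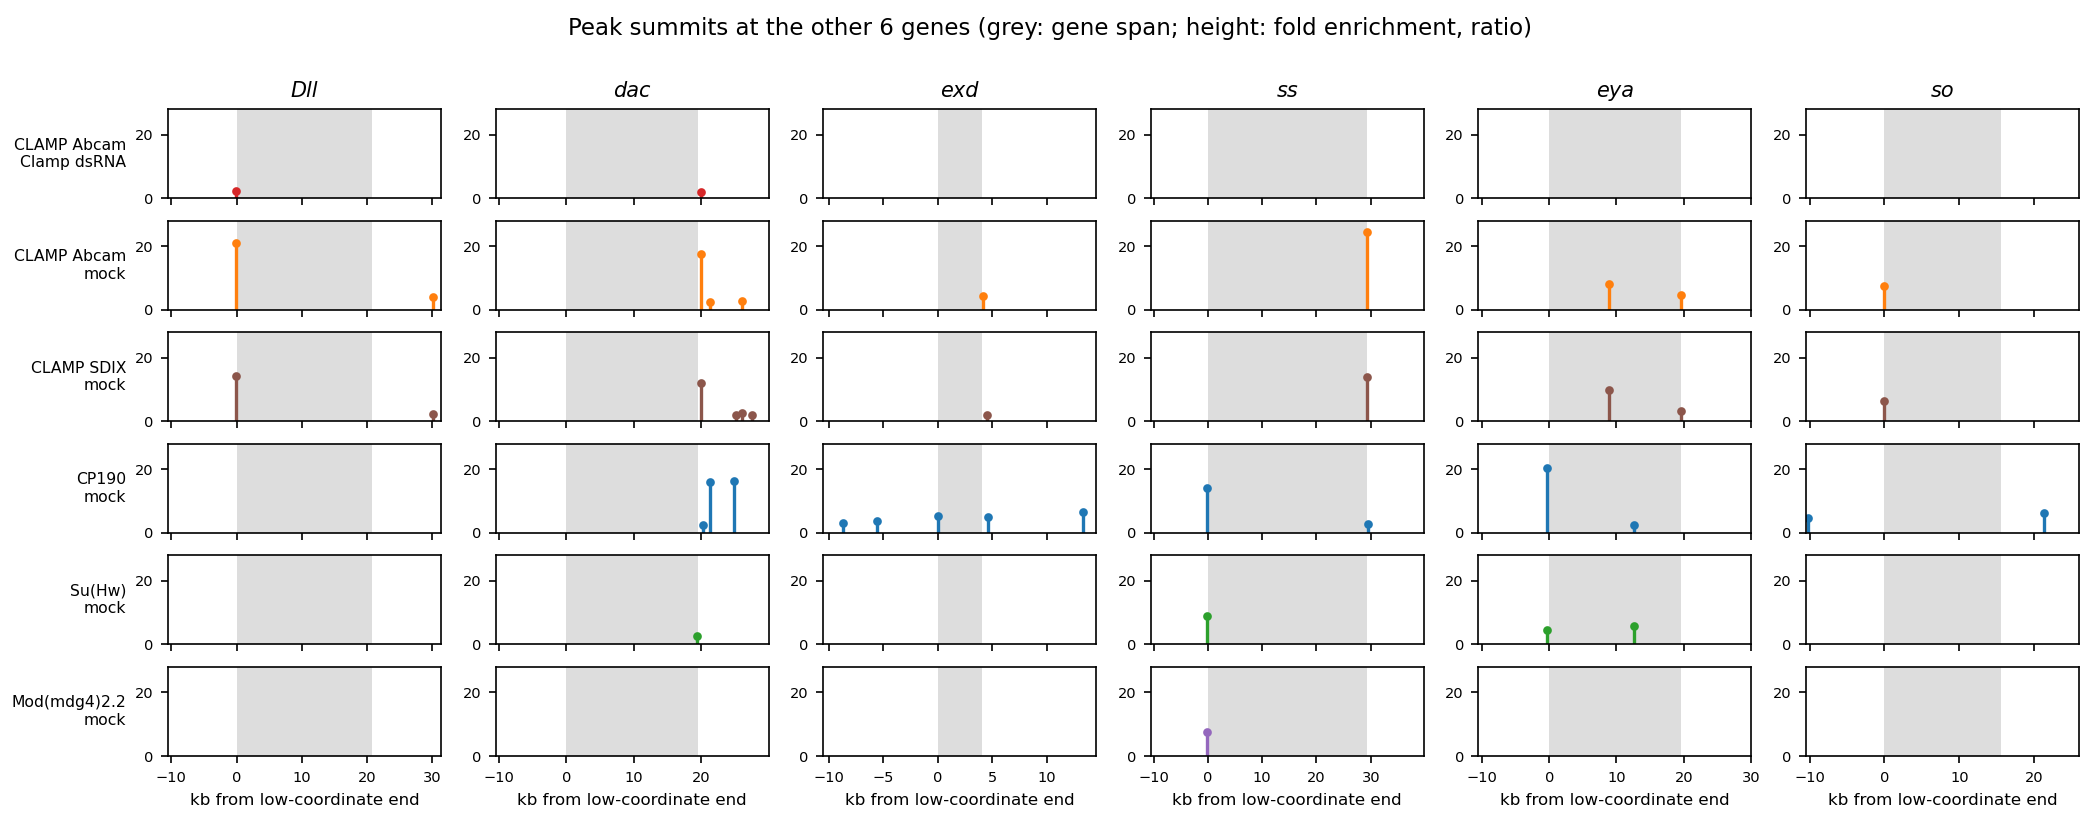
Peak summits at Dll, dac, exd, ss, eya and so in the 6 lists; the x axis is the distance in kb from the low-coordinate end, grey is the gene span, and line height is the fold enrichment (ratio). CLAMP lines stand at or just outside a gene end at each of the 6 genes; at ss and eya the tallest CP190 line and a Su(Hw) line stand at the opposite end from a CLAMP line, and Dll has no line of an insulator protein.

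A mock Abcam summit lay within 500 bases of an end in each of the 7 genes, 7 of the 19 peaks, where 10.8% of all genes and 24.9% of genes spanning at least 10 kb had one. With the SDIX antibody 6 genes had one, where 12.8% of all genes and 30.9% of those spanning at least 10 kb did. The exception was exd, whose SDIX summit lay 523 bases from its end. CP190 summits lay as near an end at exd, ss and eya, where 44.4% of all genes and 55.1% of those spanning at least 10 kb had one. Su(Hw) summits did at dac, ss and eya (4.68% and 9.99%), and a Mod(mdg4)2.2 summit at ss (3% and 6.54%). After dsRNA a CLAMP summit lay that near an end at Dll, where 0.56% of all genes had one. These shares stand beside counts of genes that were chosen from the lists.

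The antibodies placed CLAMP at nearly the same bases of these genes. Of the 19 Abcam peaks, 18 shared bases with an SDIX peak, with a median of 23.5 bases between the summits, where 80.3% of the whole Abcam list shared bases with SDIX. The exception is the 2.50-fold peak beside dac. With CP190, 7 of the 19 Abcam peaks shared bases, where 57.8% of the whole list did. With Su(Hw) 1 of 19 did, where 6.71% of the list did, and with Mod(mdg4)2.2 none did, where 3.6% of the list did. Of the 8 Su(Hw) peaks at these genes, 7 shared bases with CP190, where 76% of all Su(Hw) peaks did. Peaks were listed at 4.99 per 100 kb of the gene windows for Abcam CLAMP, against 2.89 over the arms, and at 4.99 against 7.05 for CP190. For the dsRNA list the values were 0.788 and 1.24. Leaving out hth lowers the Abcam count to 10 peaks, of which 9 shared bases with SDIX.

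After Clamp dsRNA, CLAMP peaks stayed at Dll, dac and hth, 1 at each, and none was listed at ss, exd, eya or so. At Dll the peak was 2.32-fold and 167 bases wide after dsRNA, against 21.1-fold and 2011 bases in mock cells, with the summits 47 bases apart. At dac it was 2.01-fold and 179 bases wide, against 17.7-fold and 2069 bases in mock cells, with the summits 61 bases apart. At hth it was the lone site at 28.4 kb, 2.38-fold and 131 bases wide after dsRNA, against 19.1-fold and 1029 bases in mock cells, with the summits 94 bases apart.

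Of the 19 mock Abcam peaks at the 7 genes, 3 thus had an overlapping peak after dsRNA, where 2.43% of the whole mock list did. A kept peak lay within 10 kb of 1.4% of all genes and of 3.3% of genes spanning at least 10 kb. All 3 were among the strong peaks, but the strongest by fold enrichment were not kept. The peak at ss (24.4-fold) and the 3 peaks of hth between 106.9 and 114.8 kb (20.6- to 24.4-fold) had no dsRNA peak. Each had a higher mock fold enrichment than the kept peaks at hth and dac. By -log10 q, the lost hth peak at 114.8 kb (346) stood below all 3 kept peaks (395 to 447). The one at 109.5 kb (443) stood below the kept peak at dac. Of mock peaks of at least 17.7-fold, 3 of 7 were kept at these genes, against 29 of 80 (36.2%) in the whole mock list. Below that limit, 65 of 3781 peaks of the whole mock list were kept. At these genes 0 of 12 were, which the choice of the limit fixes. That limit is the weakest kept peak at the 7 genes and was set after the values were seen.

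Within the dsRNA list the kept peaks stood at ranks 999 (hth), 1126 (Dll) and 1528 (dac) of 1653 by fold enrichment. Their -log10 q-values were 4.46, 5.26 and 3.57, and the median of the list was 5.12, so that Dll was above it and hth and dac below. The 7 genes had no dsRNA peak other than these 3. In the whole dsRNA list, 7.2% of peaks shared bases with a mock Abcam peak and 59.8% with a mock SDIX peak. Neither Su(Hw) nor Mod(mdg4)2.2 shared bases with the kept sites as listed after dsRNA. CP190 did at dac, with the 2.36-fold peak.

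**Figure D4:**
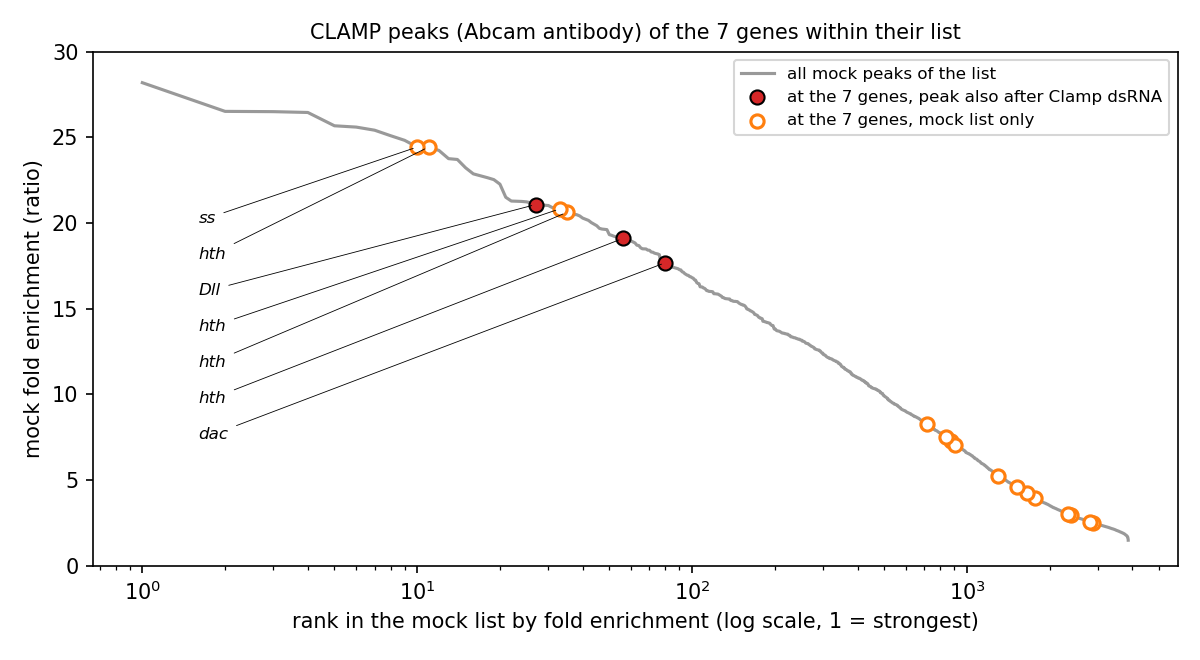
Mock fold enrichment (ratio, y axis) against rank in the mock Abcam CLAMP list (x axis, log scale); the grey line is the whole list of 3861 peaks and the points are the 19 peaks at the 7 genes. The 3 filled points, which also had a peak after Clamp dsRNA, are Dll, hth and dac at ranks 27, 56 and 80, while ss and 3 other hth peaks at ranks 10 to 35 are open.

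Just inside the 10 kb limit, the CP190 peak of 4.71-fold at so ended 9.94 kb from the gene. Just outside lay CLAMP peaks 10.02 kb (Abcam, 5.03-fold) and 10.05 kb (SDIX, 4.23-fold) beyond the high-coordinate end of ss. CP190 peaks of 18.2-fold and 14.2-fold stood 10.05 kb beyond the high-coordinate end of eya and 11.1 kb beyond the low-coordinate end of so.

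Other genes of appendage and eye patterning were taken from 4 lists of 54 genes, of which 53 matched the gene table. Mock Abcam peaks lay within 10 kb of 46 of the 53, and 31 had a summit within 500 bases of an end, beside 48.9% and 10.8% of all genes and 69.6% and 24.9% of those spanning at least 10 kb. CP190 was present at 46, Su(Hw) at 21 and Mod(mdg4)2.2 at 9, beside 87%, 39.9% and 21.4% of all genes. For genes spanning at least 10 kb these shares were 95.3%, 63.2% and 35.2%. A kept CLAMP peak lay near 8 of the 53, beside 1.4% of all genes and 3.3% of those spanning at least 10 kb. Neighbouring genes can share peaks, so the genes cannot be taken as independent, and the lists were chosen with results of these data known.

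Among 14 genes of the eye list, 10 had mock Abcam CLAMP, 13 CP190 and 1 Su(Hw), beside 48.9%, 87% and 39.9% of all genes. For genes spanning at least 10 kb the shares were 69.6%, 95.3% and 63.2%. The highest Abcam values were 21.0-fold at toy, a Pax6 gene of eye development, 20.1-fold at eyg, another Pax gene, and 18.7-fold at tio, a zinc-finger gene. Of these eyg kept a peak after dsRNA. A dsRNA peak near tio (2.88-fold) shared no base with a mock Abcam peak.

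Of 20 leg and antenna genes, 19 had mock Abcam CLAMP, 18 CP190 and 13 Su(Hw). Of all genes these shares were 48.9%, 87% and 39.9%, and of genes spanning at least 10 kb 69.6%, 95.3% and 63.2%. The zinc-finger genes disco (26.5-fold) and btd (22.3-fold) had the highest values and kept no peak. Genes that kept at least 1 were the LIM-homeodomain gene Lim1 (2 peaks), the homeodomain gene ct (1 peak) and disco-r (1 peak). The highest value in the window was 2.63-fold after dsRNA against 21.3-fold in mock cells at Lim1, 2.77-fold against 15.2-fold at ct and 1.87-fold against 18.3-fold at disco-r. The mock and dsRNA values of a window need not belong to the same site.

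All 8 wing genes had mock Abcam CLAMP, and CP190 and Su(Hw) each lay near 4 of them, beside 48.9%, 87% and 39.9% of all genes. For genes spanning at least 10 kb the shares were 69.6%, 95.3% and 63.2%. The T-box gene bi (23.7-fold) kept 2 peaks, and the wing selector gene vg (19.1-fold) and the POU gene nub (14.4-fold) kept 1 each. The zinc-finger gene salm (17.7-fold) kept none. These values are the highest mock Abcam values of each window and need not be those of the kept peaks. Among the 11 matched genes of signalling, 9 had CLAMP with the Abcam antibody and 10 with the SDIX antibody, beside 48.9% and 52.3% of all genes. For genes spanning at least 10 kb the shares were 69.6% and 74.2%. The highest Abcam values were those of en (23.2-fold), inv (21.3-fold) and the Wnt gene wg (14.96-fold). The only kept peak there lay near spi, which encodes a ligand of the EGF receptor and had a highest mock Abcam value of 9.97-fold in its window.

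The genes most like each of the 7 were found among 13902 to 13915 protein-coding genes, by the Euclidean distance over the 6 lists of log2(1 + highest fold enrichment within 10 kb). For Dll they were the homeobox gene E5 (distance 0.30) and the Toll-family gene 18w (0.49). These genes likewise had CLAMP in mock cells and after dsRNA and no insulator protein within 10 kb. For hth they were tai, which encodes a nuclear receptor coactivator (0.72), and ND-15 (1.25), so hth was the least matched of the 7. For dac they were MSAmiP (0.36) and CG10555 (0.50), CG10555 being 1 of 4 genes at that distance, and for ss CG33483 (0.58) and the GATA factor gene GATAe (0.73). For eya they were the polarity gene scrib (0.37) and Pomp (0.39, 1 of 2 genes at that distance), for exd the nuclear pore gene Nup50 (0.15) and Asap (0.15), and for so Nup93-1 and jub, which have the same highest values in all 6 lists (0.13 each). By the number of peaks in place of the highest value, 3 of these 14 genes were found again, E5 and 18w for Dll and tai for hth.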

How the data were processed

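The authors deposited 6 peak lists in the narrowPeak layout without header lines. The row names carry the word pooled, so the ChIP libraries of an antibody and treatment were combined before peak calling. The submitters' processing notes name MACS2 2.1.0.20150731, Bowtie2 2.2.9, cutadapt 1.8.1, Picard and SAMtools 1.2, and build dm6, without settings or a threshold for peaks. The deposited fold enrichment is a ratio at the summit, the deposited -log10 q is that of MACS2, and summits are offsets in bases. Library sizes are not used here, so depth is unknown and a missing peak means that none passed the authors' threshold.

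Gene spans came from a RefSeq table (Release 6 plus ISO1 MT), which holds neither strand, exons nor sequence. The planned motif search and the printing of sequences were therefore not done. Peaks were assigned within 10 kb, sharing meant at least 1 base, and ranks run by fold enrichment on the 6 arms. The members and lists were chosen with earlier results of these data known. For each gene and list the text names the strongest peak, peaks with a summit within 500 bases of an end, and dsRNA and kept peaks; of each pathway list it names the 3 genes with the highest mock Abcam value and those with a kept peak. Other peaks are given as well, since they are few. No test was run. Overlap functions were tested on simulated peaks. Computation used Python 3.11.15, pandas 2.3.3 and NumPy 2.4.6.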

Additional observations from a re-analysis of the deposited data

How the results depend on the processing

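No paired analysis was possible because each deposited list pools its libraries, and for the same reason no library could be left out. Of 105 counts recomputed under other settings, 81 stayed within 1.5 times the reported count. Among these is the count of kept peaks when only mock peaks at least as strong as the weakest kept one are used. That setting was added after seeing the data and could only return 3. With the gene span alone, CP190 peaks at the 7 genes fell to 11, and with 25 kb on either side they came to 38, Su(Hw) peaks to 15 and Mod(mdg4)2.2 peaks to 5 at 4 genes. With only the peaks at or above their list's median -log10 q, 1 dsRNA peak was left, at 1 gene, and 1 kept peak. In the same setting 12 SDIX, 7 CP190, 2 Su(Hw) (at 2 genes) and 1 Mod(mdg4)2.2 peak (at 1 gene) were left, and of 14 Abcam peaks 1 shared bases with CP190 and 0 with Su(Hw). With summits within 250 bases as the rule for sharing, 3 of 19 Abcam peaks were shared with CP190 and 0 with Su(Hw). Without hth, a setting added after seeing the data, there were 10 Abcam, 11 SDIX, 4 Su(Hw) and 1 Mod(mdg4)2.2 peak (at 1 gene), and 9 Abcam peaks shared with SDIX. The 3 kept peaks stayed 3 in every setting but that of the median -log10 q, where 1 was left, and that without hth, where 2 were left. Ranked by -log10 q in place of fold enrichment, 7 of 29 ranks moved by over 1.5 times, among them Dll in the Abcam list (rank 93), hth in the SDIX list (rank 33) and eya in the CP190 list (rank 263). The cause of these shifts was not tested.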
